A study of Mus musculus with 8 samples.

Results

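The expression of 9 genes that act with the androgen receptor was examined in RNA-seq counts from 8 Myc-CaP tumors. The genes were taken by their symbols, and all 9 were found among the 38115 genes listed and passed the filter on low counts in every comparison. They were the pioneer and lineage factors Foxa1, Gata2, Gata3 and Grhl2, the p160 coactivators Ncoa1, Ncoa2 and Ncoa3, the corepressor Ncor1 and the histone demethylase Kdm1a. Myc-CaP is a mouse prostate cancer cell line derived from a tumor of a transgenic mouse with prostate-specific MYC expression. Androgen sensitive (AS) or castrate resistant (CR) Myc-CaP cells had been injected into the anterior prostate lobes of male FVB mice, and RNA was taken from primary tumors (n=4) and metastatic tumors (n=4), with 2 AS and 2 CR tumors of each kind. The mice were intact or castrated by surgery before injection, and the labels do not give the state of the host for each tumor. The labels describe the metastases as matched without saying with which primary tumor, and they give neither age nor the site of a metastasis. All tumors come from 1 parental cell line, and nothing in the labels says that each tumor came from a separate animal, so p-values measure only the spread between these tumors. A metastasis and a primary tumor may share a mouse, in which case the tumors of a phenotype are not independent. The p-values between phenotypes may then be too small. Those between tumor types, where the pairing is left out, may be too large.

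The androgen receptor is a nuclear receptor that binds DNA after it binds its ligand and recruits coactivators, which open chromatin, or corepressors, which close it. Pioneer factors such as Foxa1 and Gata2 bind closed chromatin first and make receptor sites accessible, and in the prostate they help to set luminal epithelial gene expression. The p160 coactivators bind the ligand-bound receptor and bring histone acetyltransferases, whereas Ncor1 brings histone deacetylase.

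Within each tumor type the tumors are named AS1 to CR2, and a shared number does not mark a pair. Total counts ranged from 20905806 to 91886163, with a median of 72949496 in AS tumors and 32748050 in CR tumors. Of the markers of prostate luminal epithelium, Krt8 ranged from 36.5 to 715 counts-per-million (CPM, on the scale of the Trimmed Mean of M-values, TMM). Cdh1 reached at most 0.609 CPM, Krt18 0.420 CPM and Epcam 0.280 CPM, so these 3 luminal markers were near 0 in all tumors.

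Upstream sequence is shown for 4 of the genes, because their levels carry the patterns described here: Foxa1 varied most closely with Ncoa2, Ncoa1 and Ncor1 varied together, and Kdm1a separated AS from CR tumors. Each run is the 250 bases before a RefSeq start site on GRCm38.p6, in the direction of the gene. Capitals mark matches on either strand to a forkhead motif (TGTTTAC) or to an androgen receptor half-site (AGAACA). The letters of an E-box (CACGTG), of the sites of Gata factors (AGATAA) and of grainyhead factors (AACCNGTT) were searched in the same way and were not in these 4 windows, and no matches overlapped.
Foxa1 (chr12:57546112-57546361, minus strand): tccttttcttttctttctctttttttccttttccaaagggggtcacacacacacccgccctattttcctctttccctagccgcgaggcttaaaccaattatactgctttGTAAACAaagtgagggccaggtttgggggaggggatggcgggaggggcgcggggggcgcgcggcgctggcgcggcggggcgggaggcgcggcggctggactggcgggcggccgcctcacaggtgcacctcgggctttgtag
Ncoa1 (chr12:4477183-4477432, minus strand): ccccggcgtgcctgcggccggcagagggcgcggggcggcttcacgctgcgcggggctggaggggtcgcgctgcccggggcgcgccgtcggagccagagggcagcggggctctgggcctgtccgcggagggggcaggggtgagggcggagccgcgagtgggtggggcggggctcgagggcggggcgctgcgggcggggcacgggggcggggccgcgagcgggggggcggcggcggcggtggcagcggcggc
Ncor1 (chr11:62438516-62438765, minus strand): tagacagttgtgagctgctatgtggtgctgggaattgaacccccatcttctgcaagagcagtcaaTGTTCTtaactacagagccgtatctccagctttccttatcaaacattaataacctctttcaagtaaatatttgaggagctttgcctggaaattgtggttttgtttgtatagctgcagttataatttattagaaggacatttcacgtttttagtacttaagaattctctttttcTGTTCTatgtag
Kdm1a (chr4:136602724-136602973, minus strand): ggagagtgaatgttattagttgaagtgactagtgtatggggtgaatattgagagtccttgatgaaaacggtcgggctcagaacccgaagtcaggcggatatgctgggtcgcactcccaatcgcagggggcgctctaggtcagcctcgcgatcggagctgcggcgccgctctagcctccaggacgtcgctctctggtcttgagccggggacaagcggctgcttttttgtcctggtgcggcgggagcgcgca
The Foxa1 window held 1 forkhead match, 141 bases before the start, and such a match was present in 3.17% of the 32841 RefSeq windows of the same length. The Ncor1 window, which lies before an internal start, held 2 half-site matches, 185 and 12 bases before that start, and 16.1% of all windows held at least 1. The window before the other Ncor1 start (chr11:62457333-62457582, GC content 73.6%), near the 5′ end of the gene, held none of the 5 motifs and is not printed because it covers 147 exonic bases. GC content was 85.6% in the Ncoa1 window, 62.0% in the Foxa1 window, 59.2% in the Kdm1a window and 36.8% in the Ncor1 window, against a median of 52.4% over all windows. In the GENCODE M21 annotation the Ncoa1 and Kdm1a windows lie directly outside their genes, the Ncor1 window lies in an intron, and the Foxa1 window lies inside the gene and covers 10 exonic bases. These matches describe letters only, since binding was not measured.

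All 9 genes are protein-coding genes with annotated exons on GRCm38. Foxa1 lies at chr12:57540628-57546916 (minus strand), Gata2 at chr6:88193891-88207032 (plus strand), Gata3 at chr2:9857078-9890034 (minus strand) and Grhl2 at chr15:37233036-37363569 (plus strand). Ncoa1 lies at chr12:4247362-4477182 (minus strand), Ncoa2 at chr1:13139105-13374083 (minus strand), Ncoa3 at chr2:165992636-166073242 (plus strand), Ncor1 at chr11:62316426-62458541 (minus strand) and Kdm1a at chr4:136550540-136602723 (minus strand).

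To set the genes in order of level, CPM were divided by the length of the union of annotated exons. Foxa1 was highest at 21.5 ± 5.20 CPM per kilobase (SD, n=8), followed by Ncor1 at 19.5 ± 6.05 and Kdm1a at 10.4 ± 1.95. Gata3 was at 8.0 ± 3.06, Grhl2 at 6.27 ± 1.28, Ncoa1 at 4.85 ± 1.31, Ncoa3 at 4.57 ± 1.54 and Ncoa2 at 3.18 ± 0.848. Gata2 was far below the others at 0.0614 ± 0.0330 CPM per kilobase. Neighbors in this order overlapped in range over the 8 tumors, other than Ncoa2 and Gata2. The order depended on the length used: with the length of the first transcript that Ensembl numbers in place of the union of exons, Ncor1 was at 27.7, Kdm1a at 26.3, Grhl2 at 10.9 and Ncoa2 at 10.2 CPM per kilobase.

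**Figure D1:**
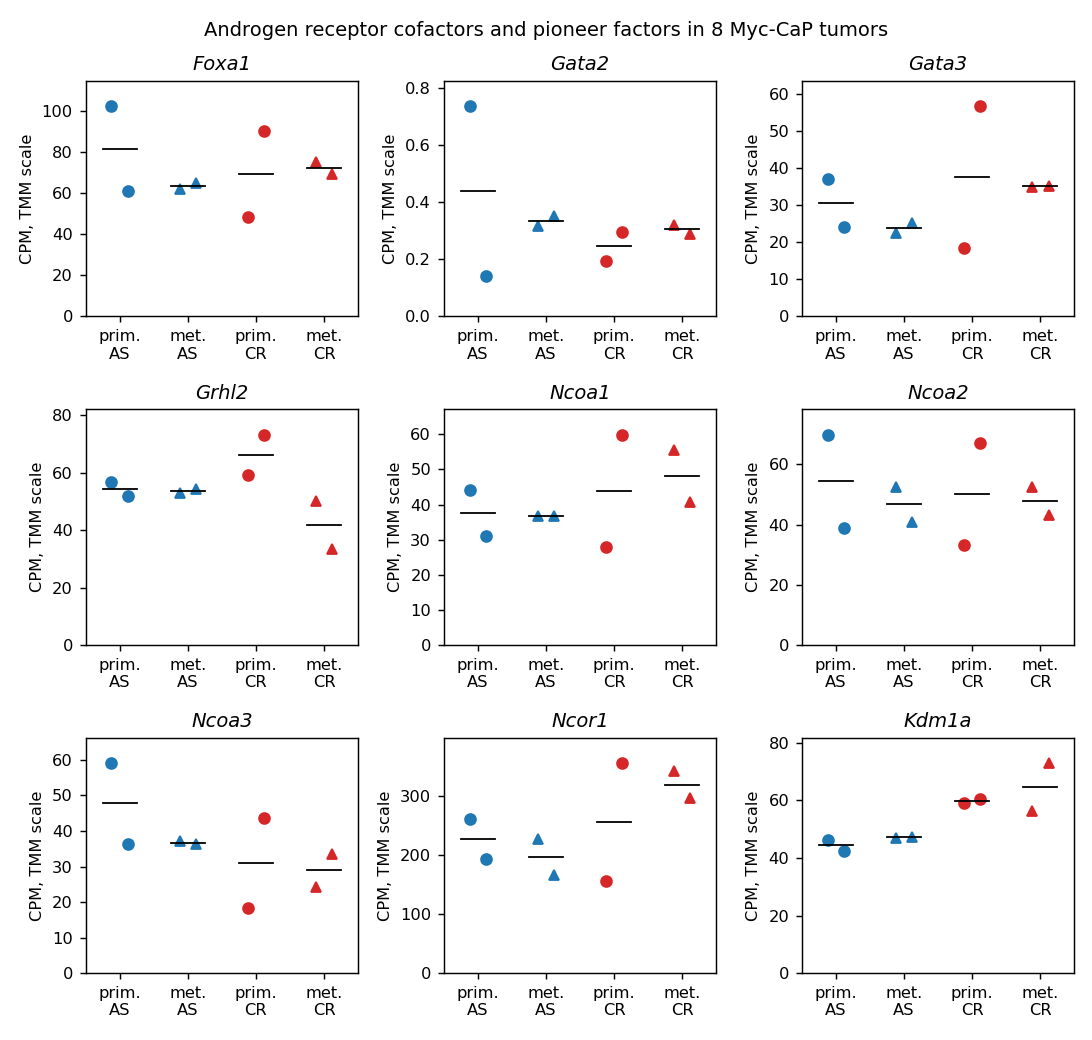
Expression of the 9 genes in each tumor, in counts-per-million on the TMM scale (linear axes from 0). Points are single tumors, with circles for primary and triangles for metastatic tumors, blue for androgen sensitive and red for castrate resistant, and black lines are means of 2 tumors. Kdm1a is the only gene of the 9 whose 4 CR tumors (56.2 to 72.9 CPM) all lie above its 4 AS tumors (42.5 to 47.5 CPM).

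To ask whether expression of the 9 genes differed with resistance to castration, CR and AS tumors were compared in a model with tumor type as a covariate (edgeR's quasi-likelihood test). None of the 9 passed an adjusted p-value of 0.05 (0 of 9), against 11.4% of all 17797 genes tested. Only 1 of them, Kdm1a, had an unadjusted p-value below 0.05, beside 5015 of the 17797 genes. DESeq2, which called 20% of all genes, also called 1 of the 9, Kdm1a. Of the 9 fitted log2 fold changes 4 were above 0, with a median of -0.02, beside a median of -0.0072 over all genes tested. At the level of single values, 1 of the 9 genes, Kdm1a, had groups that did not overlap, against 18.4% of all genes tested. Each of these shares among the 9 genes was therefore at or under that of all genes.

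Kdm1a encodes a demethylase of histone H3 that works in the CoREST corepressor complex and has also been described as a coactivator of the androgen receptor. It was at 46.3 and 42.5 CPM in primary AS1 and AS2 and at 47.0 and 47.5 CPM in metastatic AS1 and AS2. Primary CR1 and CR2 had 59.1 and 60.5 CPM, and metastatic CR1 and CR2 had 56.2 and 72.9 CPM. Every CR tumor was above every AS tumor, and the AS tumors lay within a narrow range. The means were 62.2 ± 7.38 CPM in CR and 45.8 ± 2.28 CPM in AS tumors (SD, n=4 each), with a fitted log2 fold change of 0.44 (SE 0.14, approximate 95% interval 0.17 to 0.71), and the difference did not pass the threshold in edgeR's quasi-likelihood test (Benjamini-Hochberg adjusted p = 0.0692, unadjusted p = 0.0102). DESeq2 gave 0.47 with an adjusted p = 0.0154, in a fit that called 20% of all genes, and the adjusted p ranged from 0.0154 to 0.454 over 14 alternatives. The fitted difference was nearly the same within primary tumors (0.42, SE 0.21) and within metastatic tumors (0.43, SE 0.21), and edgeR's quasi-likelihood test called neither, with 56 (0.296%) and 68 (0.36%) of 18889 genes called. Depth differed between the phenotypes, and its part in this result was not tested. Primary CR1, whose total count of 76887592 lay within the range of the AS tumors, had 59.1 CPM. The tumors with the lowest total counts, metastatic CR2 (20905806) and primary CR2 (24909389), had the highest values, 72.9 and 60.5 CPM. Metastatic CR1 (40586710) had 56.2 CPM. The separation also depended on scale, since Kdm1a groups overlapped when counts were divided by the total count or by the sum over protein-coding genes.

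Of the genes for partners of Kdm1a in the CoREST complex, Rcor1, which bridges Kdm1a to DNA and to deacetylases, had a log2 fold change of 0.35 (SE 0.23, edgeR's quasi-likelihood test, adjusted p = 0.341). Rcor3 was at 0.33 (SE 0.22, adjusted p = 0.341) and Rcor2 at -0.04 (SE 0.22, adjusted p = 0.931) in the same edgeR test. Hmg20b, a DNA-binding subunit, went the other way at -0.56 (SE 0.20, unadjusted p = 0.0219, adjusted p = 0.108 by edgeR). The reader subunit Phf21a was at 0.33 (SE 0.34, edgeR adjusted p = 0.566), and the deacetylases Hdac1 and Hdac2 were at 0.23 (SE 0.17, edgeR adjusted p = 0.393) and 0.24 (SE 0.24, edgeR adjusted p = 0.566). These genes were chosen after their values were seen.

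Among the p160 coactivators, which bind the receptor through short helical motifs, Ncoa3 had the largest fitted difference. Ncoa3 was at 59.0, 36.4, 37.1 and 36.3 CPM in primary AS1, primary AS2, metastatic AS1 and metastatic AS2. In primary CR1, primary CR2, metastatic CR1 and metastatic CR2 it was at 18.4, 43.5, 24.4 and 33.6 CPM. Primary AS1 was highest and primary CR1 lowest, and only primary CR2 among the CR tumors reached the AS range. The log2 fold change was -0.48 (SE 0.28, edgeR's quasi-likelihood test, adjusted p = 0.289), and it stayed below 0 under all 14 alternatives (-0.73 to -0.27). When counts were divided by the sum over protein-coding genes, Ncoa3 and not Kdm1a was the gene whose groups did not overlap, with CR tumors lower. On that scale 18.7% of all genes tested had groups that did not overlap, so this is not particular to Ncoa3. Ncoa3 shares 154 exonic bases with Sulf2 on the opposite strand, and the strand setting of the counting is not given in the sources used here.

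Ncoa1 was at 44.1 and 31.0 CPM in primary AS1 and AS2, 36.8 CPM in both metastatic AS tumors, 27.9 and 59.9 CPM in primary CR1 and CR2, and 55.7 and 40.6 CPM in metastatic CR1 and CR2. The CR tumors spanned the AS range on both sides, and the log2 fold change was 0.31 (SE 0.25, edgeR's quasi-likelihood test, adjusted p = 0.448). It moved with the primary CR tumors, to 0.49 without primary CR1 (edgeR adjusted p = 0.0856) and to 0.081 without primary CR2 (edgeR adjusted p = 0.873), which were the lowest and highest adjusted p over its 14 alternatives. Ncoa2 was at 69.8 and 38.8 CPM in primary AS1 and AS2, 52.4 and 41.0 CPM in metastatic AS1 and AS2, 33.1 and 67.0 CPM in primary CR1 and CR2, and 52.5 and 43.3 CPM in metastatic CR1 and CR2. Its means were 49.0 ± 14.4 CPM in CR and 50.5 ± 14.2 CPM in AS tumors (SD, n=4 each), with a log2 fold change of -0.04 (approximate 95% interval -0.55 to 0.47).

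Ncor1, a corepressor that holds histone deacetylase on unliganded or antagonist-bound receptors, was at 261, 193, 228 and 166 CPM in primary AS1, primary AS2, metastatic AS1 and metastatic AS2. It was at 156, 356, 344 and 297 CPM in primary CR1, primary CR2, metastatic CR1 and metastatic CR2. The other 3 CR tumors lay above every AS tumor, whereas primary CR1 was the lowest of all. The log2 fold change of 0.44 (SE 0.28) did not pass edgeR's quasi-likelihood test (adjusted p = 0.336), and it was 0.16 (SE 0.39) within primary and 0.68 (SE 0.39) within metastatic tumors. Single tumors decided this result: without primary CR1 the log2 fold change was 0.67 with an edgeR adjusted p = 0.0330, in a fit that called 21.6% of all genes. Without primary CR2 it was 0.24 (edgeR adjusted p = 0.682), and without metastatic AS2 it was 0.29 (edgeR adjusted p = 0.624). Over its 14 alternatives the adjusted p ranged from 0.0330 to 0.896. Ncor1 shares 82 exonic bases with Pigl on the opposite strand.

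**Figure D2:**
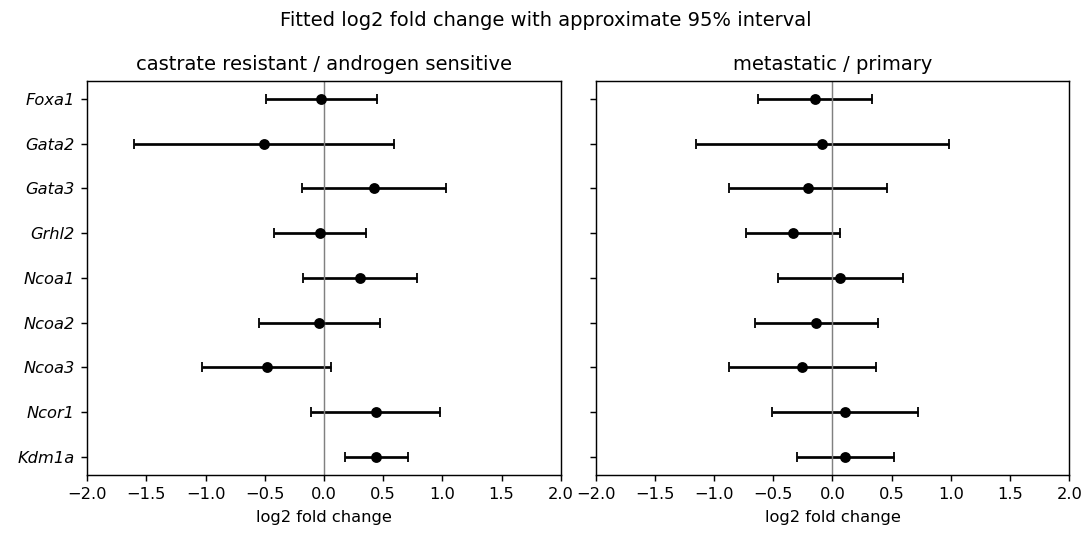
Fitted log2 fold changes of the 9 genes, CR over AS tumors at the left and metastatic over primary tumors at the right (n=4 per group), with points for the estimate and bars for the approximate 95% interval. At the left only the interval of Kdm1a (0.17 to 0.71) lies wholly on one side of 0, and at the right every interval includes 0. The bars reach 1.96 SE to each side and are narrower than edgeR's quasi-likelihood test implies.

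Since counts of genes within 1 tumor share its scaling, the coactivators and the corepressor were also compared with each other inside each tumor. These quantities were chosen after the values were seen and are given as a description with no test. For each count on the 3 p160 genes together, Ncor1 had 1.51 and 1.82 counts in primary AS1 and AS2 and 1.81 and 1.46 in metastatic AS1 and AS2. The ratio was 1.96 and 2.09 in primary CR1 and CR2 and 2.59 and 2.53 in metastatic CR1 and CR2. All CR tumors, primary CR1 among them, lay above all AS tumors, with means of 2.29 ± 0.313 and 1.65 ± 0.193 (SD, n=4 each). Among single genes 18.4% of those tested had phenotypes that did not overlap, and no such share was computed for ratios of genes. The difference of 0.644 lay between 0.544 and 0.754 when each tumor was left out in turn. Since the groups did not overlap, its sign could not change in these fits.

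The composition of the p160 counts differed as well. Ncoa1 made up 25.5% and 29.2% of them in primary AS1 and AS2, 29.1% and 32.2% in metastatic AS1 and AS2, 35.2% and 35.1% in primary CR1 and CR2, and 42.0% and 34.6% in metastatic CR1 and CR2. Ncoa3 made up 34.1%, 34.3%, 29.4% and 31.8% in the same AS tumors and 23.2%, 25.5%, 18.4% and 28.6% in the CR tumors. The phenotypes did not overlap in either share, with Ncoa1 higher in CR (36.7% ± 3.53 against 29.0% ± 2.76) and Ncoa3 lower (23.9% ± 4.30 against 32.4% ± 2.31, SD, n=4 each). How often such shares of other genes do not overlap was not computed. The share of Ncoa2 overlapped, at 39.4% ± 1.97 in CR and 38.6% ± 2.76 in AS tumors. These are shares of counts, which depend on the lengths of the transcripts, and they sum to a constant, so a higher share of one gene lowers those of the others.

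**Figure D3:**
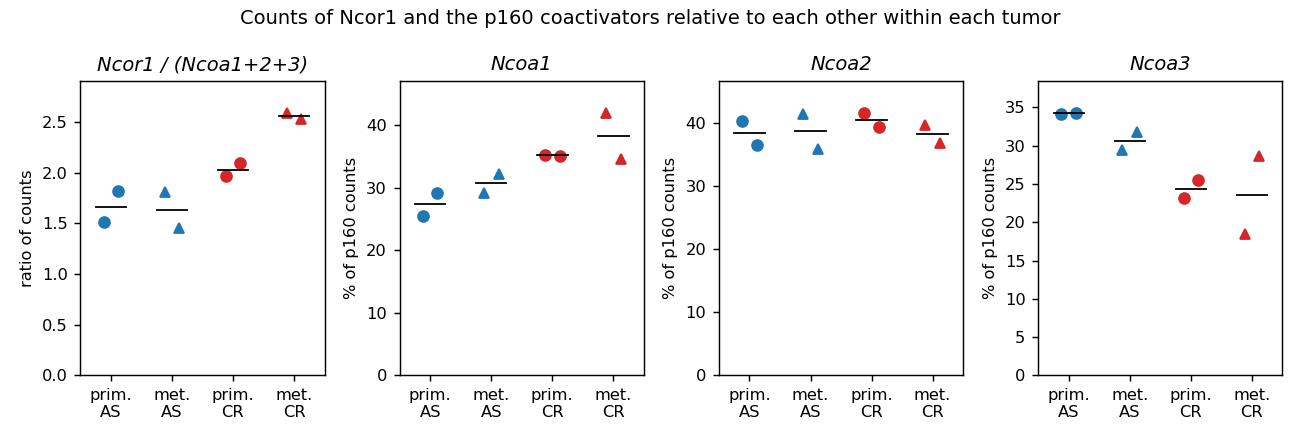
Counts of Ncor1 per count of the 3 p160 coactivators, and the percent of p160 counts on Ncoa1, Ncoa2 and Ncoa3, in each of the 8 tumors (circles primary, triangles metastatic, blue AS, red CR, black lines means of 2 tumors). The ratio and the share of Ncoa1 are higher and the share of Ncoa3 is lower in all 4 CR tumors, while the share of Ncoa2 overlaps.

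Foxa1 is the forkhead pioneer factor that opens many androgen receptor sites in prostate luminal cells. It was at 102 and 61.1 CPM in primary AS1 and AS2, 61.8 and 64.7 CPM in metastatic AS1 and AS2, 48.5 and 90.4 CPM in primary CR1 and CR2, and 75.3 and 69.2 CPM in metastatic CR1 and CR2. Primary AS1 stood above the other AS tumors, which were close together, and the CR tumors covered a wider range on both sides of these. The means were 70.8 ± 17.4 CPM in CR and 72.5 ± 19.9 CPM in AS tumors (SD, n=4 each), and the log2 fold change was -0.02 (approximate 95% interval -0.49 to 0.45). The sign depended on the processing, and the value was 0.17 without primary AS1 and 0.16 without primary CR1.

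Gata3, a zinc finger factor of luminal and urothelial cells and of T lymphocytes, was at 37.2, 24.1, 22.5 and 25.3 CPM in primary AS1, primary AS2, metastatic AS1 and metastatic AS2. It was at 18.6, 56.7, 35.0 and 35.3 CPM in primary CR1, primary CR2, metastatic CR1 and metastatic CR2. The primary CR tumors held both the lowest and the highest value, and the metastatic CR tumors were nearly equal and above the metastatic AS tumors. The log2 fold change was 0.42 (SE 0.31, edgeR's quasi-likelihood test, adjusted p = 0.406). It was 0.68 without primary CR1 (edgeR adjusted p = 0.0293), in a fit that called 21.6% of all genes. Without primary CR2 it was 0.08 (edgeR adjusted p = 0.901), and these were the lowest and highest adjusted p over its 14 alternatives. The 8 T cell markers together reached 0.707 to 3.14 CPM per tumor and the 6 urothelial markers 1.74 to 15.8 CPM. In primary CR2, with the most Gata3, they were at 0.936 and 3.99 CPM, and the part of these cells in the Gata3 values was not tested. In RNA from whole tumors, fewer cells of a type and less RNA per cell cannot be told apart. Gata3 shares 155 exonic bases with the antisense gene Gm13256, which had at most 14 counts.

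Grhl2, a grainyhead factor of epithelial cells that has also been described with the androgen receptor, was at 56.7, 51.8, 52.9 and 54.4 CPM in primary AS1, primary AS2, metastatic AS1 and metastatic AS2. It was at 59.2, 73.2, 50.3 and 33.3 CPM in primary CR1, primary CR2, metastatic CR1 and metastatic CR2. AS tumors hardly varied (54.0 ± 2.10 CPM), and the CR tumors had the same mean with a larger spread (54.0 ± 16.8 CPM, SD, n=4 each), both primary CR tumors lying above and both metastatic CR tumors below every AS tumor. The log2 fold change between phenotypes was -0.04 (approximate 95% interval -0.42 to 0.35). Grhl2 shares 169 exonic bases with the antisense gene Gm16136, which reached 775 counts.

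Gata2, a pioneer factor of prostate, endothelial and mast cells, had 46, 10, 25 and 36 counts in primary AS1, primary AS2, metastatic AS1 and metastatic AS2, and 16, 6, 11 and 7 counts in primary CR1, primary CR2, metastatic CR1 and metastatic CR2. On the CPM scale these were 0.737, 0.143, 0.318 and 0.353 in AS and 0.195, 0.296, 0.321 and 0.289 in CR tumors. Primary AS1 was highest and primary AS2 lowest, so AS tumors spanned the whole CR range. The log2 fold change of -0.51 (approximate 95% interval -1.60 to 0.59) rested on few counts, and it turned to 0.17 without primary AS1. Markers of endothelium summed to between 52.8 and 106 CPM and those of mast cells to between 0.731 and 5.86 CPM, and in primary AS1 they were at 59.3 and 0.849 CPM. The part of these cells in the Gata2 values was not tested.

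To ask whether the 9 genes differed with metastasis, the 4 metastatic and the 4 primary tumors were tested against each other (edgeR's quasi-likelihood test, tumor type as the only term). None of the 9 was called or had an unadjusted p-value below 0.05, nor was any of the 17104 genes tested (0%), with 459 genes at an unadjusted p-value below 0.05 and 0 genes called by DESeq2. None of the 9 had groups that did not overlap, against 1.72% of all genes tested. The fitted log2 fold changes of the 9 genes lay between -0.33 for Grhl2 and 0.11 for Kdm1a, with a median of -0.14 beside -0.03 over all genes tested. Metastatic tumors were less variable than primary tumors for 7 of the 9 genes, a difference that was not tested. The share of all genes with this pattern was not computed, so the count cannot be read as particular to the 9 genes. This held for Foxa1, with a coefficient of variation of 8.67% against 33% (n=4 each), for Ncoa2 (12.7% against 36.3%) and for Ncoa3 (17.8% against 42.8%). Kdm1a (21.7% against 17.4%) and Grhl2 (20.5% against 15.3%) did not share this pattern.

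Grhl2 had the largest fitted difference of the 9 genes between tumor types, with 47.7 ± 9.80 CPM in metastatic and 60.2 ± 9.20 CPM in primary tumors (SD, n=4 each) and a log2 fold change of -0.33 (SE 0.20, edgeR's quasi-likelihood test, adjusted p = 0.997). Within CR tumors, where 41.8 CPM in metastatic compares with 66.2 CPM in primary tumors (means, n=2 each), it was -0.68 (SE 0.26, unadjusted p = 0.0297, adjusted p = 0.625 by edgeR's quasi-likelihood test). In AS tumors the value was -0.02 (SE 0.26, adjusted p = 1 in the same edgeR test). No gene was called by this test in CR or in AS tumors (0% in each), with 1462 and 462 genes at an unadjusted p-value below 0.05. The interaction of tumor type and phenotype, which tests whether these differences differ, was -0.66 for Grhl2 (SE 0.36, edgeR's quasi-likelihood test, unadjusted p = 0.106, adjusted p = 0.964). None of the 9 genes and none of the 18889 genes tested passed for the interaction (0%), with 517 genes at an unadjusted p-value below 0.05 and 2 genes called by DESeq2. Of the genes known to be bound by Grhl2 in epithelia, Esrp2, a splicing factor of epithelial cells, lay between 33.8 and 64.6 CPM. Cdh1, the epithelial cadherin, did not exceed 0.609 CPM in any tumor, so Grhl2 was present where Cdh1 was close to 0.

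Much of the variation in the 9 genes lay between single tumors. Primary CR1 held the lowest value for 6 of the 9 genes (Foxa1, Gata3, Ncoa1, Ncoa2, Ncoa3 and Ncor1), whereas it held the lowest value for 14.3% of all genes tested. Primary AS1 was highest for 4 genes (Foxa1, Gata2, Ncoa2 and Ncoa3) and primary CR2 for 4 others (Gata3, Grhl2, Ncoa1 and Ncor1), against 17.1% and 12.7% of all genes tested. The median deviation of the 9 genes from their own means, on the log2(CPM + 1) scale, was -0.52 in primary CR1, 0.46 in primary CR2 and 0.30 in primary AS1, while the median over all genes was 0.0069, -0.02 and 0.0013. Exons of the 9 genes cover more bases than most, with a median of 7895 against 4378 for the protein-coding genes tested. For the 5964 protein-coding genes of at least 5000 exonic bases the median deviations were -0.06, 0.02 and 0.05 in the same 3 tumors. The part of exon length in the values of the 9 genes was not tested. Primary AS1 also had the most Msmb, a secreted prostate protein, at 6.73 CPM against at most 0.672 CPM in the other tumors. The summed markers of seminal vesicle (0.561 CPM), of liver (54.2 CPM) and of T cells (3.14 CPM) were highest in primary AS1 as well, and their part in its values was not tested. Metastatic CR2 was close to it for seminal vesicle (0.537 CPM) and T cells (2.93 CPM). The liver sum in primary AS1 was mostly Ttr (25.2 CPM) and Fga (28.1 CPM), whereas Alb, Apob and Apoa1 were highest in other tumors.

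**Figure D4:**
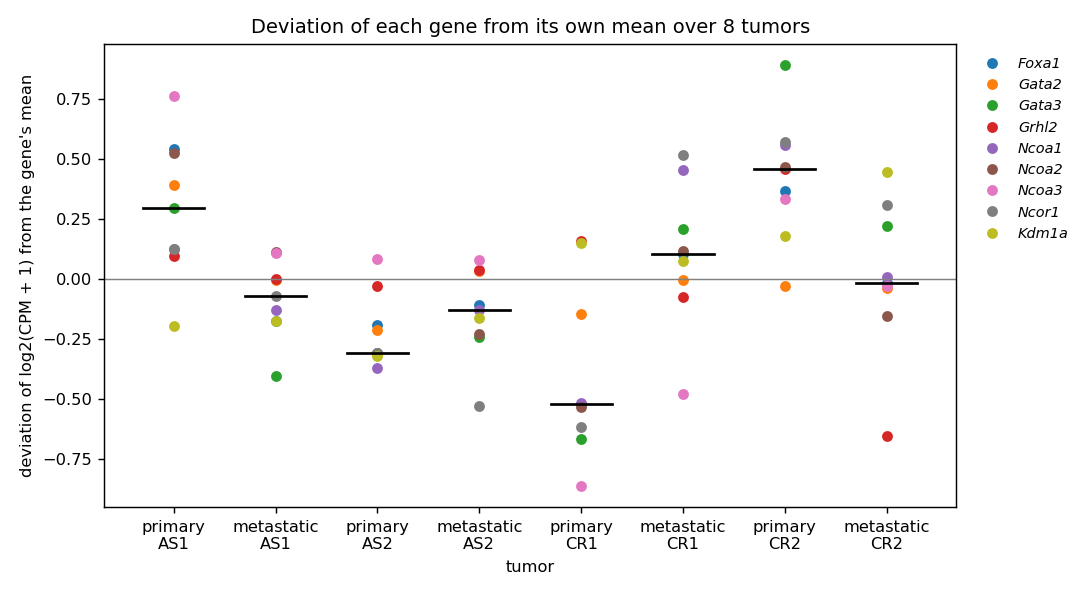
Deviation of each gene from its own mean over 8 tumors, on the log2(CPM + 1) scale, by tumor, with 1 colored point per gene and a black line at the median of the 9 genes. The points lie mostly below 0 in primary CR1 (median -0.52) and above 0 in primary CR2 (median 0.46) and primary AS1 (median 0.30).

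Pearson's correlations of log2(CPM + 1) over the 8 tumors describe which genes moved together, with libraries and scaling shared by both genes of a pair. The highest were 0.92 for Foxa1 and Ncoa2, 0.91 for Ncoa1 and Ncor1 and 0.90 for Gata3 and Ncoa1. Of the 36 pairs 6 were below 0, and Kdm1a was part of 5 of them. Kdm1a reached at most 0.44, with Ncor1, and Grhl2 at most 0.33, with Ncoa2.

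**Figure D5:**
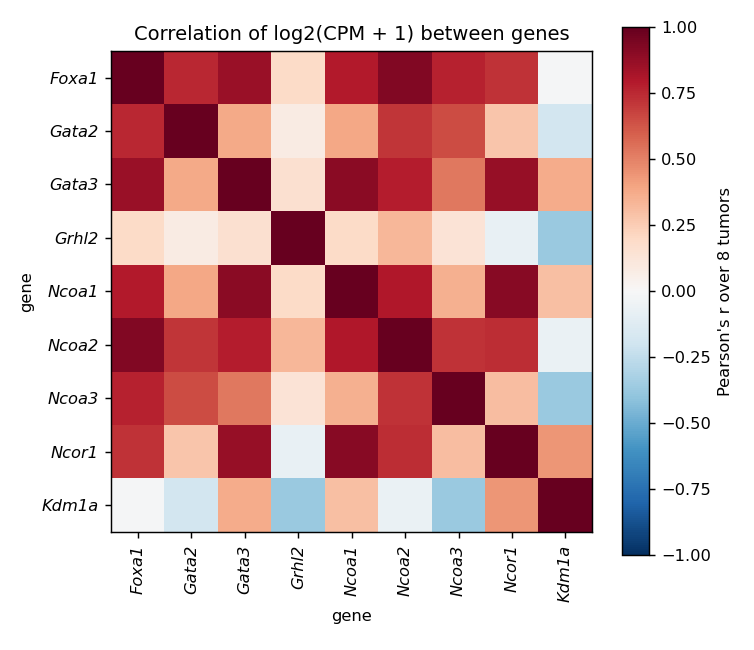
Pearson's r of log2(CPM + 1) over 8 tumors between each pair of the 9 genes, on a color scale from -1 (blue) to 1 (red). Foxa1, Gata3, Ncoa1, Ncoa2 and Ncor1 form a red block with values up to 0.92, and Kdm1a and Grhl2 are pale against the other genes.

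Among all genes with a mean log2(CPM + 1) of at least 1, the 3 most like Foxa1 were Zfyve26 (r = 0.99), Gm16536 (0.98) and Pnpla2 (0.98) over the 8 tumors. For Gata3 they were Hivep1 (0.98), Crtc2 (0.97) and Dlg5 (0.97), for Grhl2 Foxred2 (0.98), Rhobtb1 (0.98) and Notch4 (0.97), and for Gata2 Gm13610 (0.95), Lrrc4 (0.95) and Runx1 (0.94). They were picked as the highest among 13424 genes searched for each factor (13425 for Gata2), so a high r follows from the choice. The Gata2 values also rest on few counts, with primary AS1 highest.

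Other genes of the same pathway were examined for comparison. Of all 17797 genes tested between CR and AS tumors, edgeR called 11.4% and DESeq2 20%, and 5015 had an unadjusted p-value below 0.05 in edgeR. Of 18 other coactivators tested, 0 rose and 0 fell in CR tumors at an adjusted p-value of 0.05 in edgeR's quasi-likelihood test, with a median log2 fold change of 0.01, and 0 had an unadjusted p-value below 0.05 or were called by DESeq2. Of 14 other corepressors tested 1 rose, Tbl1xr1, an exchange factor of the Ncor1 complex, a share under the 11.4% of all genes called. Of these 14, 2 had an unadjusted p-value below 0.05 (Tbl1xr1 and, with lower values in CR tumors, Hmg20b), and DESeq2 called 1 (Tbl1xr1). Tbl1xr1 was at 46.7 to 56.7 CPM in AS and 64.9 to 85.7 CPM in CR tumors, with no overlap and a log2 fold change of 0.55 (SE 0.15, edgeR adjusted p = 0.0475). Its partner Tbl1x was at 0.20 (SE 0.17, edgeR adjusted p = 0.465), and Hdac3, the deacetylase of the complex, was at -0.03 (SE 0.14, edgeR adjusted p = 0.903), both named after their values were seen.

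Of 14 other pioneer and lineage factors tested 1 rose and 2 fell in CR tumors, beside 11.4% of all genes called. DESeq2, which called 20% of all genes, called 5 of the 14: these 3, Grhl1 and Sox9. The same 5 had an unadjusted p-value below 0.05 in edgeR, beside 5015 of all 17797 genes tested. Klf5, a zinc finger factor of basal and luminal progenitors, was at 2.62 to 3.12 CPM in AS and 4.35 to 16.4 CPM in CR tumors, with a log2 fold change of 1.93 (SE 0.35, edgeR adjusted p = 0.0146). Ehf, an epithelial ETS factor, fell from 100 to 150 CPM in AS tumors to 3.10 to 16.7 CPM in CR tumors, with a log2 fold change of -3.95 (SE 0.48, edgeR adjusted p = 0.00433). Trp63, the basal cell factor p63, was low throughout and had a log2 fold change of -1.80 (SE 0.43, edgeR adjusted p = 0.0321). Sox9 was at 1.18 (SE 0.41, edgeR adjusted p = 0.0949) and was named after its values were seen. The relatives of the 9 genes did not pass in edgeR: Grhl1 was at 0.67 (SE 0.21, edgeR adjusted p = 0.0683), Gata6 at 0.63 (SE 0.41, edgeR adjusted p = 0.345) and Hoxb13, the prostate homeodomain partner of the receptor, at 0.60 (SE 0.57, edgeR adjusted p = 0.524). Foxa2 and Grhl3 did not exceed 0.0413 and 0.124 CPM and were not tested.

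Of 6 androgen receptor target genes tested 2 fell in CR tumors, beside 11.4% of all genes called: Psca, a surface antigen of prostate cells, at -2.04 (SE 0.54, edgeR adjusted p = 0.0428), and Msmb, which did not exceed 0.0583 CPM in any CR tumor (edgeR adjusted p = 0.0254). Psca overlapped, at 105 to 453 CPM in AS and 39.6 to 156 CPM in CR tumors, and Msmb was at 0.137 to 6.73 CPM in AS tumors. Over the 6 genes 3 log2 fold changes were above 0, with a median of 0.06. Fkbp5, the most abundant of the 6, overlapped, at 410 to 491 CPM in AS and 288 to 553 CPM in CR tumors. Of 6 epithelial genes bound by Grhl2, Rab25, a small GTPase of epithelial traffic, fell by 2.32 on the log2 scale (SE 0.55, edgeR adjusted p = 0.0325) and the other 5 did not pass. Cldn4, a tight junction protein, went the other way at 1.75 (SE 0.69, unadjusted p = 0.0322, adjusted p = 0.137 by edgeR), and DESeq2 called Cldn4 as well as Rab25. Among the luminal markers Krt8 rose by 1.85 (SE 0.50, edgeR adjusted p = 0.0464), a gene with 38.6% of its read-length windows shared with other genes, so its level is uncertain. Between metastatic and primary tumors 0 genes of these lists passed edgeR's quasi-likelihood test or DESeq2, and 1, the target gene Klf15, had an unadjusted p-value below 0.05 by edgeR.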

How the data were processed

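RNA was extracted from Myc-CaP tumors with TRIzol, and ribosomal RNA-depleted stranded libraries were sequenced as paired-end reads. The authors mapped reads to mm10 with Bowtie, kept those with a single location and counted reads per gene, and the submitters' processing notes name CASAVA 1.8.2, TopHat2 2.0 and GRCm38. The deposited values are raw counts per gene without normalization, and the counter, annotation release and strand setting are not given in the sources used here. Reads shared with other genes are lost at the mapping step: of all windows of 101 bases in the first numbered transcript of each gene, with up to 2 mismatches, at most 1.29% were shared with another annotated gene (Ncor1) among the 9 genes.

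Tests were run with edgeR 4.0.16 in R 4.3.3 (filterByExpr, TMM, quasi-likelihood test, Benjamini-Hochberg adjustment over all genes tested, threshold 0.05). DESeq2 1.42.0, RLE factors, no filter on low counts, other covariates, subsets of tumors and each tumor left out were alternatives. Standard errors are the absolute log2 fold change over the root of F. Intervals are approximate: they reach 1.96 standard errors to each side and are narrower than the quasi-likelihood test implies. CPM are counts-per-million of the effective library size. All 8 tumors were used, grouped by their labels. Total counts of 20905806 to 91886163 make counting error small, except for Gata2, and precision depends on the number of tumors. Fits were tested on simulated data, in which most changes of 2-fold were not called, so genes that were not called may still differ. Coordinates and lengths are from GENCODE M21 (GRCm38), in which 36343 of the 38115 identifiers were found; of the listed genes, 148 were matched by symbol and 2 by Ensembl identifier. RefSeq windows (GRCm38.p6) were found for 6 of the 9 genes. Figures were drawn with matplotlib 3.10.9.

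The 9 genes and all lists were chosen with earlier results of these data known. Named were the 9 genes in full, always Hoxb13, Foxa2, Gata6, Grhl1 and Grhl3 (some other genes of the rule are not reported here), and genes of the lists past the threshold (at most 10 per comparison, by size of the log2 fold change; Tbl1xr1 falls outside these and was named after its values were seen), and the 3 genes most like each pioneer factor by Pearson's r. The genes past the threshold also include the urothelial marker Krt20, higher in CR tumors at 0.122 to 1.77 CPM, and the liver markers Ttr and Fga, lower in CR tumors. Marker sums per tumor were 0.197 to 0.815 CPM for B cells, 59.1 to 113 CPM for fibroblasts, 236 to 581 CPM for macrophages, 0.0244 to 0.561 CPM for seminal vesicle, 5.86 to 54.2 CPM for liver and 0.291 to 0.837 CPM for lung.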

Additional observations from a re-analysis of the deposited data

Results flagged for a closer look

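Of 52 groups of 4 values examined, 3 held a tumor that stood apart from the others by Dixon's criterion (the gap to the nearest value over the whole range), where chance gives about 1 in 20 groups. In AS tumors, primary AS1 stood apart for Foxa1, with 102 CPM against 61.1 to 64.7 CPM and a gap of 0.911 of the range. The same tumor stood apart for Ncoa3, with 59.0 CPM against 36.3 to 37.1 CPM and a gap of 0.966. In CR tumors, metastatic CR1 stood apart for the share of Ncoa1 among p160 counts, with 42.0% against 34.6% to 35.2% and a gap of 0.921.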

How the results depend on the processing

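No paired analysis was possible because the primary tumor that each metastasis matches is not given. Between CR and AS tumors the number of genes called, 2026 over all tumors, was 3563 with DESeq2, 3098 with no filter on low counts, 56 in primary and 68 in metastatic tumors only, and 433 to 3994 with each tumor left out, the highest without primary CR1 and the lowest without metastatic AS1. For the interaction it was 2 with DESeq2, 217 with no filter, and 0 to 82 with each tumor left out (82 without primary CR2, 0 otherwise). On the total count scale the number of the 9 genes whose CR and AS tumors did not overlap was 0, against 16.6% of all genes tested. The log2 fold change between CR and AS tumors turned to 0.0101 for Foxa1 with DESeq2 and with RLE factors and to 0.17 in metastatic tumors only, to 0.0094 for Grhl2 with phenotype as the only term and 0.28 in primary tumors only, and to 0.0153 for Ncoa2 in metastatic tumors only. With each tumor left out it ranged from -0.16 to 0.17 for Foxa1, -0.76 to 0.17 for Gata2, -0.16 to 0.13 for Grhl2 and -0.25 to 0.15 for Ncoa2. Between metastatic and primary tumors it turned to -0.031 for Ncoa1 and -0.21 for Ncor1 in AS tumors only, and to 0.0466 for Foxa1 and 0.35 for Gata2 in CR tumors only. With each tumor left out it ranged from -0.32 to 0.0232 for Foxa1, -0.33 to 0.66 for Gata2, -0.41 to 0.18 for Gata3, -0.0812 to 0.34 for Ncoa1, -0.31 to 0.0351 for Ncoa2, -0.49 to 0.0042 for Ncoa3, -0.0622 to 0.38 for Ncor1 and -0.0515 to 0.22 for Kdm1a. The difference in the share of Ncoa2 ranged from -0.109 to 1.74 percentage points. None of the turned values passed its test, and the cause was not tested. Of 263 alternative values for the 9 genes 229 kept direction and side of the threshold, 31 turned in sign and 3 passed the threshold. No main value of the 9 genes passed, so keeping the side of the threshold says little about stability. Subsets and fits with a tumor left out use fewer tumors. Ratios, shares, their fits with a tumor left out and levels by transcript length were chosen after seeing the data.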
